A study of Bos taurus with 18 samples.

Results

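The miR-183 cluster consists of 3 microRNAs, bta-miR-183, bta-miR-182 and bta-miR-96, that are cut from 1 transcript. They were taken by name from the deposited file of each library, and all 3 were present, out of 824 miRNAs that remained when the 966 listed names were merged so that each miRNA counted once. The libraries hold small RNA of rumen papillae, the finger-like folds through which the largest forestomach absorbs fermentation products, from 9 Holstein cows that were not lactating and carried a rumen cannula. FD_CON (5 libraries) and FD_PHY (4) were taken while the cows ate only forage (100% of the diet). HG_CON (5) and HG_PHY (4) were taken after the move to a high-grain diet with 65% concentrate. Cows had been allocated at random to CON, the controls, or to PHY, a supplement. The sources used here do not say what PHY stands for or whether it was already fed on forage. Grain always followed forage, so diet and time cannot be told apart, and PHY and CON are different cows. The 18 libraries came from 9 cows, and the p-values below treat them as independent.

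The cluster is conserved across vertebrates and is best known from sensory organs. It is abundant in the hair cells of the inner ear, in photoreceptors and in olfactory and taste epithelium, and mutations in the seed of miR-96 cause hereditary hearing loss. The seed is the short stretch near the 5' end with which a miRNA pairs with its targets. The members have seeds that are alike but not the same, so their targets overlap in part, and FOXO transcription factors are among the known targets of miR-182 and miR-96. The cluster is also expressed in other epithelia and is often raised in carcinomas. No mature sequences were used here.

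All 3 members lie on the minus strand of chromosome 4, at positions that the files give on a genome build not named in the sources used here. bta-miR-183 (chr4:94411436-94411458, 23 nt) comes first in the direction of transcription. bta-miR-96 (chr4:94411216-94411238, 23 nt) follows after a gap of 197 nt. bta-miR-182 (chr4:94406724-94406747, 24 nt) lies 4468 nt beyond bta-miR-96. In the RefSeq gene table (ARS-UCD2.0) the genes MIR183, MIR96 and MIR182 stand in the same order on chromosome 4. The deposited positions do not match that assembly. Within 10000 nt of the cluster the files held no other miRNA, apart from a human name for miR-96 itself, hsa-miR-96-5p, and its opposite arm, hsa-miR-96-3p.

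The members were not equally abundant. Levels are given as CPM, raw reads scaled to a common library size (counts per mega-read) after TMM scaling, a correction for differences in library composition. miR-182 averaged 517 CPM and ranked 95 of the 468 miRNAs that passed the filter on low counts. miR-183 averaged 340.5 CPM (rank 112) and miR-96 averaged 73.7 CPM (rank 164). miR-182 stood above miR-183 in 18 of 18 libraries and miR-183 above miR-96 in 18 of 18, so the order was the same in every group. Together the 3 made up 0.0932% of the reads. The mature lengths are nearly equal, but ligation efficiency depends on the sequence, so a ratio of reads is not a ratio of molecules.

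Within the cluster, miR-182 took 55.6% ± 2.17 of the reads (SD, n = 18), miR-183 36.4% ± 2.94 and miR-96 8.02% ± 1.45. These shares use raw counts. Every read of bta-miR-96 was also listed under hsa-miR-96-5p, and in 18 of 18 libraries the adjusted count of the authors, which splits a read over the names it fits, was 0.5 times the raw count. miR-183 and miR-182 shared no reads, and their adjusted counts equalled the raw ones in 18 of 18 libraries. On adjusted counts miR-96 would take 4.18% ± 0.788 of the cluster. Its level relative to the other two is thus set by the counting rule, while a change between libraries is not.

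The strands of the hairpins were very unequal where both were listed. hsa-miR-96-3p, the passenger arm of miR-96, had 10 reads in 3 libraries, between 2 and 5 in each, or 0.0792% of the reads of both arms. It did not pass the filter. The files list a name only from 2 reads upwards, so lower counts would not show. No passenger arm of miR-183 or miR-182 was listed within 10000 nt of the cluster, so neither was analysed here.

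miR-183 was the member with the largest difference between diets. On forage, the FD_CON libraries 1 to 5 had 278, 243, 239, 341 and 319 CPM. The FD_PHY libraries 1 to 4 had 329.9, 328, 284 and 419 CPM. The FD_CON libraries 2 and 3 were the lowest of all 18.

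On grain, the HG_CON libraries 1 to 5 had 364, 323, 304, 455 and 335 CPM of miR-183. The HG_PHY libraries 1 to 4 had 372, 359, 418 and 418 CPM. The diets overlapped, with 1 of 9 grain libraries above every forage library and 8 of 9 above the forage mean. The forage mean was 309 ± 55.6 CPM and the grain mean 372 ± 49.8 CPM (SD, 9 libraries each).

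The corresponding log2 change was 0.27 ± 0.11 (SE) over both arms, or 1.2-fold, with an unadjusted p of 0.0203 and an adjusted p of 0.317 by edgeR. miR-183 therefore did not pass. Of the 468 miRNAs, 0.214% passed in this comparison, which is 1 miRNA, and 10.7% had an unadjusted p under 0.05. DESeq2 called 12 of the 153 miRNAs to which it gave an adjusted p, and limma-voom called 3 of 468. No member of the cluster was among them, but miR-96 had no adjusted p in DESeq2 and could not be called there. 1 of the 3 members was thus below an unadjusted 0.05. Among all miRNAs, miR-183 ranked 28 of 468 by p.

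miR-182, the most abundant member, differed less. The FD_CON libraries had 485, 522, 365, 538 and 462 CPM and the FD_PHY libraries 519, 456, 472 and 605 CPM. The HG_CON libraries had 528, 564, 447, 646 and 501 CPM and the HG_PHY libraries 539, 530.4, 626 and 507 CPM. The lowest value was that of FD_CON 3 and the highest that of HG_CON 4, and the diets overlapped.

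The forage mean of miR-182 was 491 ± 66.3 CPM and its grain mean 543 ± 61.9 CPM (SD, 9 libraries each), and 8 of 9 grain libraries were above the forage mean. The log2 change was 0.14 ± 0.10 (SE; adjusted p = 0.582 by edgeR), which did not pass.

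miR-96, the scarcest member and the one in which seed mutations cause deafness, had the opposite sign. The FD_CON libraries had 68.5, 82.6, 64.2, 91.1 and 83.7 CPM and the FD_PHY libraries 69.9, 79.4, 83.0 and 65.6 CPM. The HG_CON libraries had 61.1, 91.9, 68.5, 76.2 and 62.0 CPM and the HG_PHY libraries 63.3, 64.6, 93.4 and 58.1 CPM. Of the grain libraries, 4 of 9 lay below every forage library and 2 of 9 (HG_CON 2 and HG_PHY 3) above every one.

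The forage mean of miR-96 was 76.4 ± 9.55 CPM and its grain mean 71.0 ± 13.3 CPM (SD, 9 libraries each). The log2 change of -0.10 ± 0.12 (SE; adjusted p = 0.823 by edgeR) was smaller than its error, and ranged from -0.17 (without HG_PHY 3) to -0.0625 (without HG_PHY 4) with 1 library left out. miR-96 rested on 386 to 1024 reads per library. At the lowest of these the counting error was 5.09%, against a coefficient of variation of 15.7% over the 18 libraries.

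**Figure D1:**
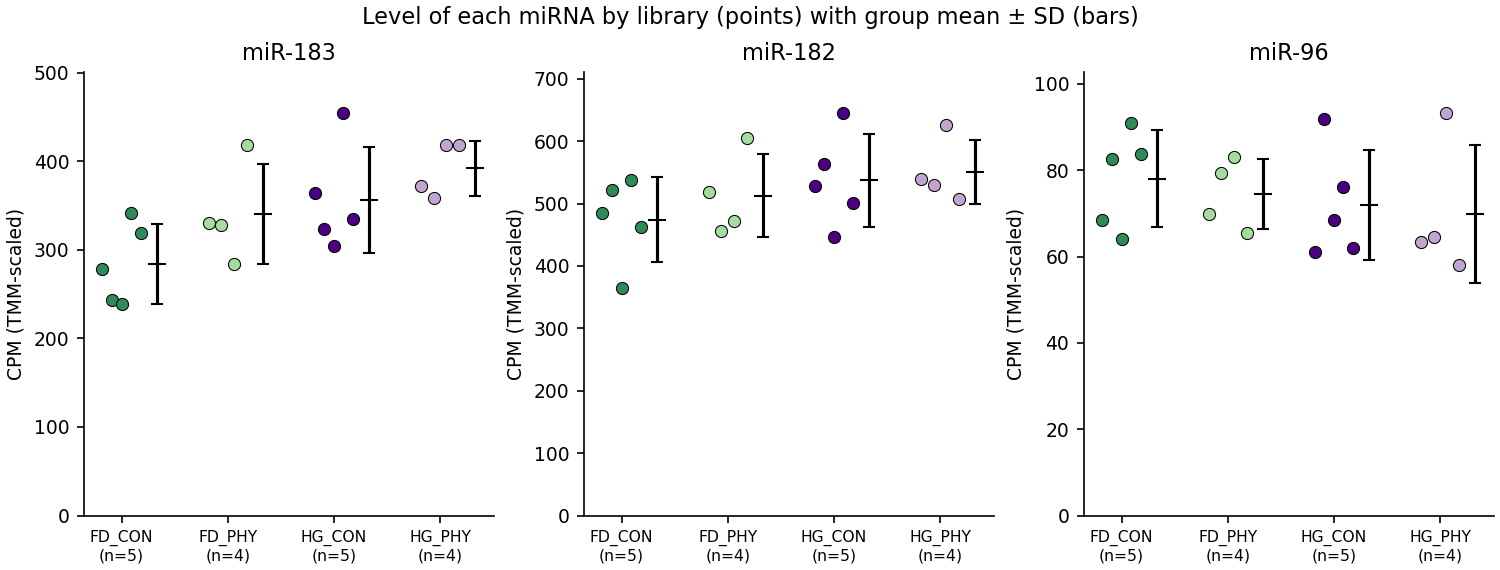
CPM of miR-183, miR-182 and miR-96 (vertical axes, from 0) in each of the 18 libraries (points) of the 4 groups, with the group mean ± SD beside them. The miR-183 points sit between 239 and 455 CPM and those of miR-96 between 58.1 and 93.4 CPM, and the groups overlap in each panel.

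The spread of the members was modest. The SD of log2 CPM over the 18 libraries was 0.26 for miR-183, 0.22 for miR-96 and 0.19 for miR-182. The median of the 122 miRNAs with a mean level within 2 times that of the members was 0.27, and that of all 468 was 0.41.

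In the control cows alone, the question was the effect of grain without the supplement. miR-183 averaged 284 ± 45.5 CPM in FD_CON and 356 ± 59.3 CPM in HG_CON (SD, 5 libraries each). The log2 change was 0.33 ± 0.14 (SE). Its unadjusted p was 0.0309 and its adjusted p 0.402 by edgeR, and 5 of 5 grain libraries were above the forage mean. miR-182 stood at 474 ± 67.8 and 537 ± 74.4 CPM (log2 change 0.18 ± 0.13). miR-96 stood at 78.0 ± 11.2 and 71.9 ± 12.7 CPM (log2 change -0.12 ± 0.16). No member passed, as was the case for all miRNAs in edgeR (0% called, 10.7% at an unadjusted p under 0.05), DESeq2 and limma-voom (0 each). With any 1 library left out, the change of miR-183 in control cows lay between 0.23 and 0.40. That of miR-182 was 0.0907 without FD_CON 3 and 0.11 without HG_CON 4, and that of miR-96 ranged from -0.23 (without HG_CON 2) to -0.0506 (without HG_CON 1).

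In the PHY cows, miR-183 averaged 340.0 ± 56.4 CPM in FD_PHY and 392 ± 31.1 CPM in HG_PHY (SD, n = 4 each; log2 change 0.20 ± 0.16). This change was 0.12 without FD_PHY 3 and 0.31 without FD_PHY 4. miR-182 averaged 513 ± 66.9 and 551 ± 52.0 CPM (log2 change 0.10 ± 0.14), and miR-96 averaged 74.5 ± 8.10 and 69.8 ± 15.9 CPM (log2 change -0.09 ± 0.18). HG_PHY 3, at 93.4 CPM of miR-96, was above the other 3 HG_PHY libraries, and all 3 of these were below every FD_PHY library. The log2 change of miR-96 was -0.24 without HG_PHY 3 and -0.00509 without HG_PHY 4. Here the adjusted p of the members lay between 0.847 and 0.988 by edgeR, which called 0% of all miRNAs (7.05% at an unadjusted p under 0.05). DESeq2 called 0 miRNAs in this comparison and limma-voom 1, which was no member.

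Whether the diet acted differently in the 2 arms was tested by the diet by supplement interaction. It was -0.12 ± 0.21 for miR-183, -0.08 ± 0.19 for miR-182 and 0.02 ± 0.24 for miR-96 (log2 ± SE). Each adjusted p was 0.997 by edgeR. Of all miRNAs 0% were called and 2.14% had an unadjusted p under 0.05, and DESeq2 and limma-voom called 0 each. Each error was larger than its estimate. The errors, 0.19 to 0.24, were also near or above the size of the diet effects over both arms. A difference between the arms as large as these effects could have been missed, but the detectable size was not tested.

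Between arms, miR-183 was the member with the largest difference on forage. It stood at 340.0 CPM in FD_PHY against 284 CPM in FD_CON, a log2 difference of 0.26 ± 0.15 (unadjusted p = 0.0959 by edgeR). Without FD_PHY 4 it was 0.16 (unadjusted p = 0.311 by edgeR). The difference was 0.11 ± 0.14 for miR-182 (0.0396 without FD_PHY 4) and -0.07 ± 0.17 for miR-96. On forage edgeR called 0% of all miRNAs (4.7% at an unadjusted p under 0.05), limma-voom 0 and DESeq2 1. The adjusted p of each member was 0.929, and no member was called.

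On grain, PHY minus CON was 0.14 ± 0.15 for miR-183, 0.04 ± 0.14 for miR-182 and -0.04 ± 0.17 for miR-96 (log2 ± SE). Without HG_CON 4 the value of miR-183 was 0.24. The adjusted p by edgeR lay between 0.803 and 0.966. Of all miRNAs, 0% were called and 6.84% had an unadjusted p under 0.05, and DESeq2 and limma-voom called 0. Both comparisons between arms, on forage and on grain, share their libraries with the diet comparisons, so their values are not independent of the diet effects above.

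**Figure D2:**
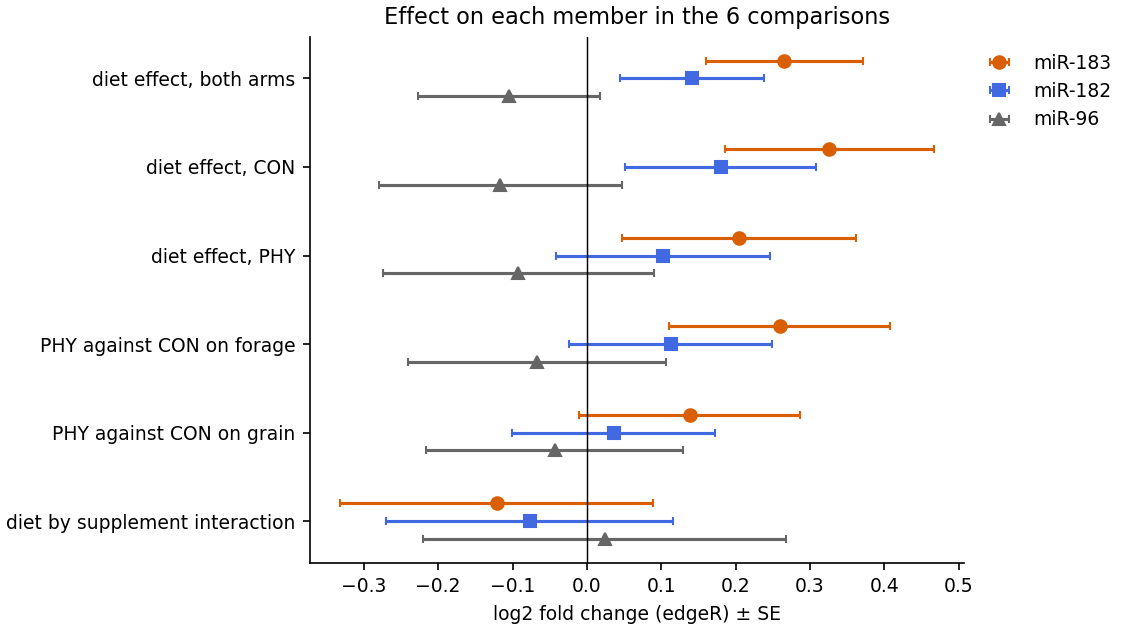
Log2 fold change (horizontal axis, edgeR) ± SE of miR-183, miR-182 and miR-96 in the 6 comparisons (vertical axis). miR-183 has the largest diet effect over both arms, 0.27 ± 0.11, and miR-96 lies at -0.10 ± 0.12 on the other side of 0.

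Because the 3 miRNAs come from 1 transcript, their ratio within a library compares the members with each other and does not depend on the scaling between libraries. There were 15 such tests, 3 ratios in 5 comparisons, each an exact two-sided permutation test with Benjamini-Hochberg adjustment over the 15.

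The ratio that differed most between diets was that of miR-96 to miR-183. There were 0.246, 0.340, 0.269, 0.267 and 0.262 reads of miR-96 per read of miR-183 in the FD_CON libraries 1 to 5. In the FD_PHY libraries 1 to 4 there were 0.212, 0.242, 0.292 and 0.157. FD_PHY 4 was thus low for a forage library, and FD_CON 2 was high.

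On grain, the HG_CON libraries had 0.168, 0.285, 0.226, 0.167 and 0.185 reads of miR-96 per read of miR-183. The HG_PHY libraries had 0.170, 0.180, 0.223 and 0.139. HG_CON 2 was the only grain library above the forage mean of the log2 ratio, with 8 of 9 below it. The diets overlapped, and 1 of 9 grain libraries, HG_PHY 4, was below every forage library.

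The geometric mean of this ratio was 0.249 on forage and 0.190 on grain, a log2 difference of -0.39 (SD of the log2 ratio 0.31 on forage and 0.31 on grain, n = 9 each). The exact permutation p was 0.0179, and 0.198 after adjustment, so the difference did not pass in this test, which treats the libraries as unpaired. It was -0.45 in control cows (exact permutation p = 0.0397, adjusted 0.198) and -0.33 in PHY cows (exact permutation p = 0.257, adjusted 0.422). In PHY cows it was -0.19 without FD_PHY 3, -0.21 without HG_PHY 4 and -0.49 without FD_PHY 4. Without FD_PHY 4, the forage library with the lowest ratio, the difference over both arms was -0.48 and passed (adjusted p = 0.0287, exact permutation test). It passed with no other single library left out.

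The ratio of miR-96 to miR-182 had the same sign. Its geometric mean was 0.156 on forage and 0.130 on grain, a log2 difference of -0.27 (exact permutation p = 0.0264, adjusted 0.198). It was lower than the forage mean in 8 of 9 grain libraries, HG_CON 2 again being the exception. Within the arms the difference was -0.30 in control cows (exact permutation p = 0.0556) and -0.22 in PHY cows (exact permutation p = 0.257). In PHY cows it ranged from -0.36 (without FD_PHY 4) to -0.13 (without FD_PHY 3) with 1 library left out. This difference, too, passed without FD_PHY 4 (-0.33, adjusted p = 0.0287, exact permutation test) and with no other single library left out. The 2 ratios share miR-96 and are not independent.

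The ratio of miR-183 to miR-182 differed least. Its geometric mean was 0.625 on forage and 0.683 on grain, a log2 difference of 0.13 (exact permutation p = 0.115, adjusted 0.345), and 8 of 9 grain libraries were above the forage mean. FD_CON 2 had the lowest ratio of all libraries, 0.466, and HG_PHY 4 the highest, 0.825. Without FD_CON 2 the difference was 0.08.

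Between PHY and control cows none of the ratios passed. The largest difference was that of miR-96 to miR-183 on forage, with a geometric mean of 0.220 in FD_PHY and 0.275 in FD_CON (log2 difference -0.32, exact permutation p = 0.159, adjusted 0.397). Without FD_PHY 4 it was -0.16. On grain the same ratio had a geometric mean of 0.176 in HG_PHY and 0.202 in HG_CON (log2 difference -0.20, exact permutation p = 0.405). Without HG_CON 2 this grain difference was -0.0763, without HG_PHY 4 -0.0877 and without HG_PHY 3 -0.32. The smallest exact p that 5 against 4 libraries allow is 0.00794. After adjustment over all ratio tests, a single ratio at this p could not pass on its own. That none passed therefore does not show that the arms are alike. The same limit holds for diet within an arm, where the smallest exact p is 0.00794 in control cows and 0.0286 in PHY cows.

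**Figure D3:**
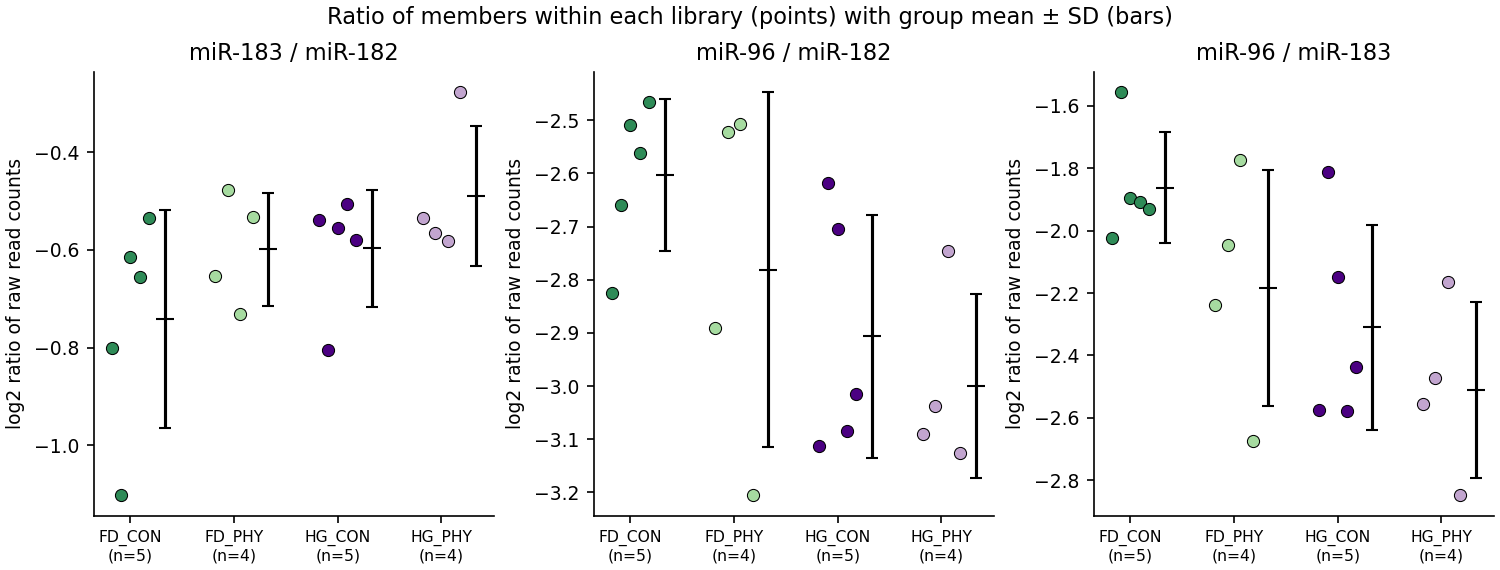
Log2 ratio of raw read counts of 2 members within a library (vertical axes) for the 18 libraries (points) of the 4 groups, with the group mean ± SD. In the panel of miR-96 to miR-183 the group means lie between -1.86 (FD_CON) and -2.51 (HG_PHY), and the groups overlap.

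Depth was not the same in all groups. With each miRNA counted once, libraries held 5.74 to 15.2 M reads (M, mega-reads), on average 10.3 ± 2.72 M on forage and 8.86 ± 2.22 M on grain (SD, 9 libraries each). FD_CON 2, which had the highest ratio of miR-96 to miR-183, was the deepest library, and HG_PHY 4, which had the lowest, the second deepest at 13.3 M. The part of depth in the ratios was not tested.

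If members of 1 transcript varied together, libraries high in one should be high in the others. This was examined within each diet, where each cow gives 1 library, as 6 correlations of log2 CPM (exact permutation over pairings, two-sided, n = 9, adjusted over the 6). The 2 members of a pair share the library and its scaling factor.

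miR-183 and miR-182 had the closest relation. On forage Pearson's r was 0.682 (exact permutation p = 0.0429, adjusted 0.129) and Spearman's rho 0.583 (exact permutation p = 0.108, adjusted 0.216). On grain r was 0.726 (exact permutation p = 0.0265, adjusted 0.129) and rho 0.633 (exact permutation p = 0.0760, adjusted 0.216). Without the 2 libraries farthest from the median of miR-183, r was -0.06 on forage and 0.287 on grain, so the relations rest on those pairs of libraries (FD_CON 3 and FD_PHY 4, HG_CON 3 and HG_CON 4). Leaving them out also narrows the range of miR-183, which by itself lowers r. With only 1 library left out, r stayed between 0.484 and 0.891 on forage and between 0.579 and 0.874 on grain. In control cows alone r was 0.508 on forage and 0.850 on grain, and in PHY cows 0.871 and 0.339.

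miR-96 did not follow miR-183. Their r was 0.00066 on forage (exact permutation p = 0.999) and 0.0709 on grain (exact permutation p = 0.852), with rho at 0.217 (exact permutation p = 0.581) and 0.0333 (exact permutation p = 0.948). Without the 2 farthest libraries r was 0.121 and -0.0715. Adjusted over the 6, these p-values lay between 0.850 and 0.999. On forage r was 0.678 in control cows and -0.884 in PHY cows, so the pooled value near 0 joins arms of opposite sign, with 5 and 4 libraries.

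miR-182 and miR-96 stood between these pairs. On forage r was 0.174 (exact permutation p = 0.673) and rho 0.150, and on grain r was 0.620 (exact permutation p = 0.0739, adjusted 0.148) and rho 0.633 (exact permutation p = 0.0760). Without the 2 farthest libraries r was 0.116 on forage and 0.882 on grain. Here too the arms differed in sign on forage, with r at 0.783 in control cows and -0.924 in PHY cows. On grain r was 0.477 and 0.992. Whether the arms differ was not tested.

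**Figure D4:**
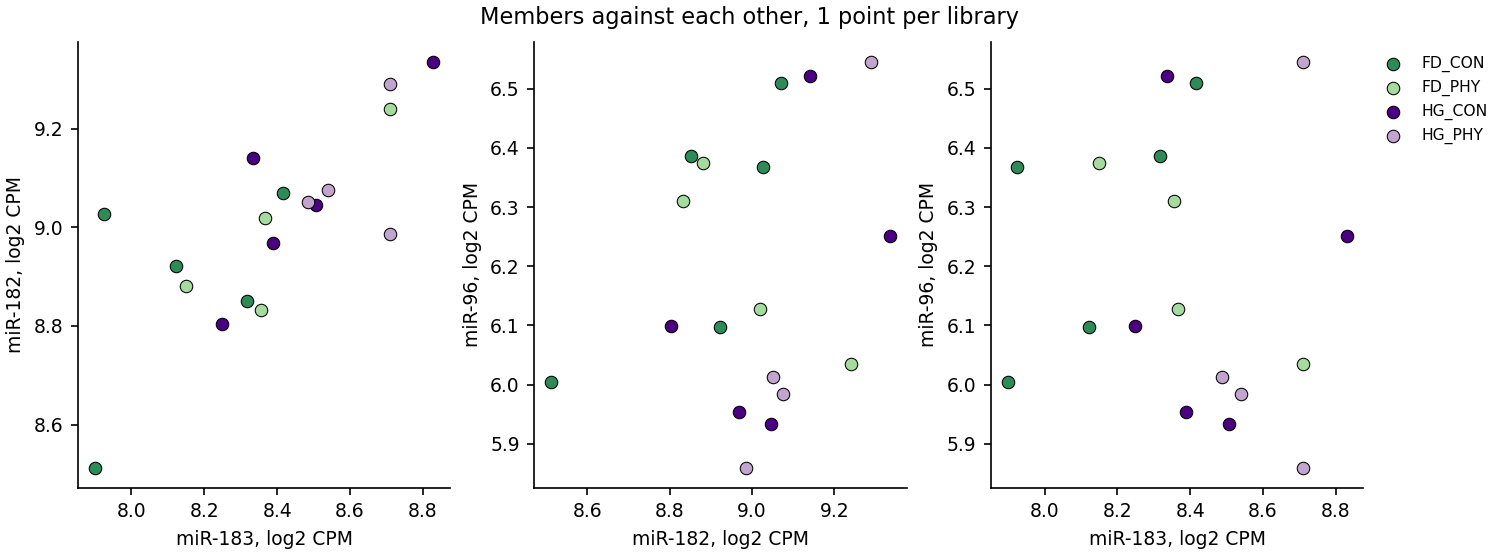
Log2 CPM of 2 members against each other (both axes) in the 18 libraries (points, coloured by group). miR-183 and miR-182 lie along a rising band, with r = 0.682 on forage and 0.726 on grain, and miR-183 and miR-96 do not, with r = 0.00066 and 0.0709. Without the 2 libraries of each diet farthest from the median of miR-183, r of miR-183 and miR-182 was -0.06 and 0.287.

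miR-1271 is a separate gene, on chromosome 7 in the files, and is known to carry the same seed as miR-96. It averaged 56.9 CPM, below miR-96 in 16 of 18 libraries. Its forage mean was 56.9 ± 8.42 CPM and its grain mean 56.9 ± 9.97 CPM (SD, 9 libraries each). Its log2 change was 0.00 ± 0.13 (adjusted p = 0.988 by edgeR).

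The biopsies are a mixture of tissue layers, and fewer cells of a type cannot be told apart from less of a miRNA per cell. The list for stratified epithelium, which lines the rumen, summed to 79558 to 112631 CPM per library, but most of this was miR-24-3p (61896 CPM on average), which many tissues express. miR-205 and miR-31, known from keratinocytes, averaged 28643 and 5106 CPM. Their log2 changes on grain were -0.01 ± 0.09 and -0.04 ± 0.14 (SE). These 3 miRNAs were chosen after their values were seen. The 7 tested members of the list had a median log2 change on grain of 0.03, with 5 above 0 and 0 called by edgeR (1 at an unadjusted p under 0.05). Over all 468 miRNAs the median was -0.01. miR-184 of this list, known from corneal and other stratified epithelia, stood at 1.09 ± 0.36 with a mean of only 4.16 CPM, and miR-149-5p at 0.13 ± 0.18.

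The miR-200 family, which keeps epithelial cells from turning mesenchymal, had a summed level of 30216 ± 3875 CPM in the 9 forage libraries and 31645 ± 4173 CPM in the 9 grain libraries (SD). Of its 5 members 4 were above 0 (median 0.06, 0 called by edgeR), with miR-141 at 0.39 ± 0.16 and miR-200a at 0.08 ± 0.11. Set against this sum in the same library, a comparison chosen after seeing the data, miR-183 was higher on grain by 0.21 (log2; exact permutation p = 0.118) and miR-96 differed by -0.18 (exact permutation p = 0.0436, adjusted 0.131). The family summed to 32344 ± 3582 CPM in FD_CON (n = 5) and 27555 ± 2441 CPM in FD_PHY (SD, n = 4). Set against it, miR-183 was higher in FD_PHY than in FD_CON by 0.49 and miR-182 by 0.35. Each had an exact permutation p of 0.00794 and an adjusted p of 0.0595, which did not pass. This p is the smallest that 5 against 4 libraries allow, so these 2 tests could not pass after adjustment on their own.

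The sensory and neural list had a lower sum than the stratified epithelium list or the miR-200 family. Single members were not all scarce. Its miR-7 and miR-9-5p, named after their values were seen, averaged 1014 and 808 CPM, above each cluster member. The list summed to 2126 to 3516 CPM per library, and 6 of its 12 tested members were above 0 on grain (median -0.01, 0 called by edgeR, 1 at an unadjusted p under 0.05). miR-128 stood at 0.21 ± 0.09, miR-129-5p at 0.53 ± 0.28 and the scarce miR-138 at -0.59 ± 0.43 (log2 change ± SE).

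The muscle, fibroblast, leukocyte and endothelial lists were lower on grain in value, and the erythroid list was higher. Their part in the differences of the cluster was not tested. The 5 tested muscle miRNAs summed to 163500 ± 52042 CPM on forage (129428 to 298165) and 113361 ± 11421 CPM on grain (102760 to 133213), with 5 of 5 below 0 and a median of -0.29. miR-143, the main smooth muscle miRNA, was at -0.51 ± 0.12 (adjusted p = 0.110 by edgeR). The fibroblast list had 8 of 8 below 0 (median -0.17), the leukocyte list 6 of 8 (median -0.23) and the endothelial list 4 of 4 (median -0.25), while the erythroid list had 3 of 3 above 0 (median 0.20). No member of these lists was called by edgeR, with 2 of 5, 3 of 8, 4 of 8, 2 of 4 and 0 of 3 at an unadjusted p under 0.05 in the order given. Of all 468 miRNAs, 10.7% were under this p and 238 were below 0. Ratios between cluster members do not use the scaling that such lists enter.

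The miRNAs whose pattern over the 18 libraries was most like that of the cluster were sought among 272 with a mean of at least 10 CPM. Likeness was Spearman's rho with the mean of the members' centred log2 CPM, given as a description, since all values share the libraries and their scaling. The 5 most alike were miR-149-5p (0.711), miR-2387 (0.664), the miR-200 family member miR-429 (0.645), the hypoxia-induced miR-210 (0.593) and miR-454 (0.591). The 3 least alike were miR-190a (-0.620), the lymphocyte miRNA hsa-miR-155-5p (-0.579) and miR-139 (-0.538). miR-429 itself had a log2 change of 0.03 ± 0.09 on grain and miR-210 one of 0.41 ± 0.14. Among the members, rho over the 18 libraries was 0.748 for miR-183 and miR-182, 0.187 for miR-182 and miR-96 and -0.193 for miR-183 and miR-96.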

How the data were processed

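Rumen papillae of 9 cows gave 18 small RNA libraries (NucleoSpin miRNA extraction and NETflex Small RNA-Seq kit, per the labels' protocols). Of tools, bcl2fastq 2.20 and DESeq2 are listed in the submitters' processing notes. Aligner, counter and build: not given in the sources used here. The deposited files hold, per the file headers, a raw read count per miRNA name and an expected count adjusted by the authors for reads that map to several names. They also hold RPM values of the authors, used here to find read totals. Assigned reads were 27.0% to 48.6% of 19.5 to 42.7 M. A deposited table holds a signal normalized by the authors. With 1 size factor per library 100% of its values became whole reads within 0.01, equal to the rounded adjusted counts, and edgeR on these reads called 2 miRNAs for diet.

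Names overlapping by 15 nt, or bovine and human names of 1 miRNA with totals within 5%, were merged, and the name with the highest total was used, except that members kept their bovine name. Raw counts of the 468 miRNAs that passed filterByExpr were fitted with edgeR 4.0.16 (R 4.3.3; TMM, quasi-likelihood test, 4 group means, no term for the cow, Benjamini-Hochberg over all miRNAs, threshold 0.05, two-sided). The script was tested on simulated data. Ratios and correlations used exact permutation tests (Python 3.11.15). DESeq2 1.42.0 and limma 3.58.1 were alternatives, beside other scalings, filters and counts, a replicate block and leaving out each library.

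Replicate numbers were not taken to pair libraries, because the labels do not say that a number marks a cow. The deviations of same-numbered libraries from their group means correlated above 0.1 in 3 of 9 pairs. This does not settle whether the numbers mark cows. Named miRNAs were the members, the other arm and miR-1271. From each list up to 3 members with the lowest p for diet were named, besides the 5 most and 3 least alike. Outside this rule, miR-24-3p, miR-205 and miR-31 of the stratified epithelium list were named after their values were seen. So were miR-7 and miR-9-5p of the sensory and neural list. Seeds could not be compared without sequences, so miR-1271 was taken from general knowledge. The members, lists and tests were chosen with earlier results of these data known.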

Additional observations from a re-analysis of the deposited data

Results flagged for a closer look

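Of the 24 sets of 4 or 5 libraries examined (3 levels and 3 ratios in 4 groups), 3 held a highest or lowest library whose gap to its neighbour, as a share of the range of the set, was above Dixon's 95% limit, and chance alone flags about 1 in 20 such sets. HG_CON 2 had a log2 ratio of miR-183 to miR-182 of -0.80, against -0.58 to -0.51 in the other HG_CON libraries. HG_PHY 4 had a log2 ratio of miR-183 to miR-182 of -0.28, against -0.58 to -0.54 in the other HG_PHY libraries. FD_CON 2 had a log2 ratio of miR-96 to miR-183 of -1.56, against -2.02 to -1.89 in the other FD_CON libraries. None of the 12 sets of levels passed this limit.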

How the results depend on the processing

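For the diet effect over both arms, all 3 members kept their sign and stayed short of the threshold in each of 31 alternatives, with log2 changes of 0.21 to 0.37 for miR-183, 0.08 to 0.25 for miR-182 and -0.18 to -0.00405 for miR-96. Of all 561 alternative values of the members' effects, 0 passed and 23 changed sign, each from a value smaller than its error. Scaling by total count alone moved the median of all miRNAs by 0.10 for diet over both arms, 0.19 in control cows, 0.15 for PHY against CON on forage and -0.18 for the interaction. With it miR-96 came to 0.0767 for diet in control cows, 0.0889 for PHY against CON on forage and -0.16 for the interaction. The miR-96 interaction also turned in limma-voom (-0.0682), with no filter (-0.00646), with 10 CPM in 4 libraries (-0.0245) and in limma-trend on the authors' table (-0.0127). Set against the miR-200 family, miR-182 came to -0.0582 for diet in PHY cows and miR-96 to 0.17 for PHY against CON on forage. DESeq2 gave no adjusted p for miR-96 in the diet comparison. The fit with only the groups compared could not be run where all 4 groups take part, and the replicate block gives no PHY against CON comparison.

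With 1 library left out, miR-182 ranged from -0.00115 to 0.11 for PHY against CON on grain and from -0.15 to 0.0176 for the interaction. miR-96 ranged from -0.13 to 0.00378 for PHY against CON on forage, from -0.18 to 0.0865 for PHY against CON on grain and from -0.13 to 0.14 for the interaction. For diet over both arms, the log2 ratio of miR-96 to miR-182 ranged from -0.33 to -0.24 and that of miR-96 to miR-183 from -0.48 to -0.34, and each passed only without FD_PHY 4. On forage, r ranged from 0.484 to 0.891 for miR-183 and miR-182, from -0.385 to 0.583 for miR-182 and miR-96 and from -0.346 to 0.441 for miR-183 and miR-96. On grain it ranged from 0.579 to 0.874 for miR-183 and miR-182 and from -0.197 to 0.383 for miR-183 and miR-96. The relation of miR-183 and miR-182 passed without FD_CON 2 on forage (adjusted p = 0.0461, exact permutation) and without HG_PHY 4 on grain (0.0365, exact permutation). On adjusted counts r of miR-183 and miR-96 on forage was -0.102.

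In a replicate block, pairing libraries by number within an arm, the log2 difference of miR-96 to miR-183 between diets was again -0.39 and passed (exact permutation p = 0.00391, the smallest that 9 pairs allow, adjusted 0.0352 over 9 tests). The block changed no other call on the cluster, and raised the count of all miRNAs called for diet from 1 to 4. For 2 of 9 numbers the best match was the library of the same number. The causes of these changes were not tested.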
